A study of Homo sapiens with 6 samples.

Results

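The 9 genes described here are 4 claudins (CLDN1, CLDN3, CLDN4 and CLDN7), OCLN, which encodes occludin, TJP1 and TJP3, F11R, which encodes JAM-A, and CGN, which encodes cingulin. They were chosen by name as a gene family and matched by symbol to the 27381 genes of the authors' table, and all 9 were found. Tight junctions seal the space between epithelial cells near their apical side. Claudins and occludin are membrane proteins that form the sealing strands, ZO proteins such as those encoded by TJP1 and TJP3 hold the tails of claudins to the actin cytoskeleton, and JAM-A and cingulin sit beside them as an adhesion molecule and a cytoplasmic linker. Loss of these proteins is a textbook feature of epithelial-mesenchymal transition, in which carcinoma cells give up stable cell-cell contacts.

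RNA was sequenced from 6 libraries of DU145, a human cell line from metastatic castration-resistant prostate cancer, with 2 libraries each labelled scrambled control (Scr), CD24 KO and RCC2 KO. Control cells had received Cas9 and a scrambled sgRNA without a target, and knockout cells had received Cas9 and an sgRNA against CD24 or RCC2, from a plasmid that also carries GFP. GFP-positive cells were sorted and expanded, 2 clones were made for each knockout, and which clone gave which library is not given in the sources used here. The authors' table gives 1 value per gene and condition. The RCC2 KO column may hold 1 library or both, because its heading equals the full label of library 1 of that condition. No SD, test or p-value can therefore be given, and no difference below has a replicate check.

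Levels are given in FPKM, fragments scaled to transcript length and library size, so that different genes can be set side by side. Depth is unknown, since the table holds no counts and none could be recovered from its low values. Comparisons are differences in log2(FPKM + 1), a scale that understates the change of genes with low values, and a 2-fold difference takes the place of a call. They were compared with 12822 genes that had at least 1 FPKM in at least 1 column, which include all 9 members. The RNA of neither targeted gene was lowest in the column labelled with its knockout. The paper reports that its DU145 knockout clones were checked by flow cytometry, Western blot and Sanger sequencing, which do not read RNA levels. Whether the labels hold for these libraries cannot be told from the RNA. RCC2 was at 37.8 FPKM in Scr against 14.2 in CD24 KO and 41.8 in RCC2 KO, and CD24 was at 93.2, 309 and 214 FPKM in the same order. Scr, CD24 KO and RCC2 KO therefore stand below for the libraries so labelled, and every direction rests on those labels.

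The labelled cell type was checked by its markers. All 6 epithelial markers were above 1 FPKM, with KRT8 at 336, 149 and 348 FPKM in Scr, CD24 KO and RCC2 KO. VIM, the vimentin gene, was at 540.0, 545 and 605 FPKM, while CDH2, which encodes N-cadherin, was listed at 0 in every column. The prostate luminal markers KLK3 and KLK2 were listed at 0 in every column. All 5 leukocyte and all 4 endothelial markers were below 1 FPKM in every column, at most 0.993 FPKM for CD14.

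The promoters of 4 members are shown because these genes had the largest difference among the claudins (CLDN1), the largest between the knockouts (TJP3), or lie side by side on chromosome 7 (CLDN3 and CLDN4). Each sequence is the 250 bases before the RefSeq start, on the gene's strand, from RefSeq on GRCh38.p14, a build that is not the one of the table. They lie at chr3:190322447-190322696 on the minus strand for CLDN1, at chr7:73770271-73770520 on the minus strand for CLDN3, at chr7:73830746-73830995 on the plus strand for CLDN4 and at chr19:3708134-3708383 on the plus strand for TJP3. Capitals mark the GC box GGGCGG or its reverse complement CCGCCC, the letters bound by SP1-type factors.
CLDN1: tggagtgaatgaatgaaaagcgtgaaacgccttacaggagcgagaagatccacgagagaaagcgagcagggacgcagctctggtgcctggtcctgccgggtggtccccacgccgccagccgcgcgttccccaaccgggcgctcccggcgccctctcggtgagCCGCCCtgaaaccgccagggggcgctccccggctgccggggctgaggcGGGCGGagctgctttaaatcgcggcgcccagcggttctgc
CLDN3: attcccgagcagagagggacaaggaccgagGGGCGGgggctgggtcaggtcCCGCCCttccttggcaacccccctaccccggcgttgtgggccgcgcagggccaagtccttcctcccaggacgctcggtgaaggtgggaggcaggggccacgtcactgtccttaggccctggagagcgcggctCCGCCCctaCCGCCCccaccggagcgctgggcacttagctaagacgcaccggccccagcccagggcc
CLDN4: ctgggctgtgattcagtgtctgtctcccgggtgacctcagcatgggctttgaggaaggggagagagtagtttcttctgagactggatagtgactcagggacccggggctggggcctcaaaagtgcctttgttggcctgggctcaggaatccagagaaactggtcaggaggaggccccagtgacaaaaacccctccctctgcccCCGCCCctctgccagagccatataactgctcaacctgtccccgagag
TJP3: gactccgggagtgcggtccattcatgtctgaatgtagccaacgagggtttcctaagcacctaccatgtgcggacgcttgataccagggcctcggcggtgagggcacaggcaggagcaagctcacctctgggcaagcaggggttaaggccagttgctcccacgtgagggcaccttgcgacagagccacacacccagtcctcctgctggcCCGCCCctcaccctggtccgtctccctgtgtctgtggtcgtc
The CLDN1 promoter holds the GC box at 88 and 40 bases before the start, and the CLDN4 and TJP3 promoters hold it once, at 47 and 42 bases. CLDN3 has 4 matches. RefSeq promoters were found for 8 of the 9 members, all but F11R, and 7 of these 8 had a GC box in this window, CLDN7 being the exception, against 42.3% of 27305 promoters. The letters G and C made up 58.8% (CLDN4) to 76% (CGN) of these 8 windows, beside a median of 58% over all promoters. The GC box is itself made of G and C, and the part of this base content in the count was not tested. The E-box CAGGTG or its reverse complement CACCTG, the core bound by SNAI and ZEB repressors, was found before the start of OCLN and TJP1, 33 and 88 bases away, and in 17.5% of all promoters. With the 50 bases after the start included, CLDN3 held it too, against 20.6% of all promoters. The grainyhead letters AACCGGTT, which are their own reverse complement, were in none of the 8 member promoters and in 0.106% of all promoters. Both strands were searched, none of the motifs contains another, and a match is a description of letters and not a binding site.

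In Scr the members lay in a high and a low tier. F11R was highest at 70.3 FPKM, above 90.8% of the genes compared, followed by CLDN1 at 65.2 FPKM, TJP1 at 43.4 FPKM and CLDN4 at 28.2 FPKM. CLDN3, CGN and CLDN7 lay close together at 8.15, 8.06 and 7.94 FPKM, and TJP3 and OCLN were lowest at 5.28 and 4.38 FPKM. OCLN was thus above 28.7% of the genes compared. F11R kept the first place in every column, and OCLN was last in Scr and CD24 KO but TJP3 was last in RCC2 KO. Without a spread between libraries, the order of near neighbours such as CLDN3, CGN and CLDN7 cannot be separated. The 9 genes summed to 241 FPKM in Scr against 221 in CD24 KO and 225 in RCC2 KO. All genes of the table summed to 451272, 388764 and 447005 FPKM in the same order. A lower sum in CD24 KO is thus also a sum from a lower column total, and is not a lower share.

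**Figure D1:**
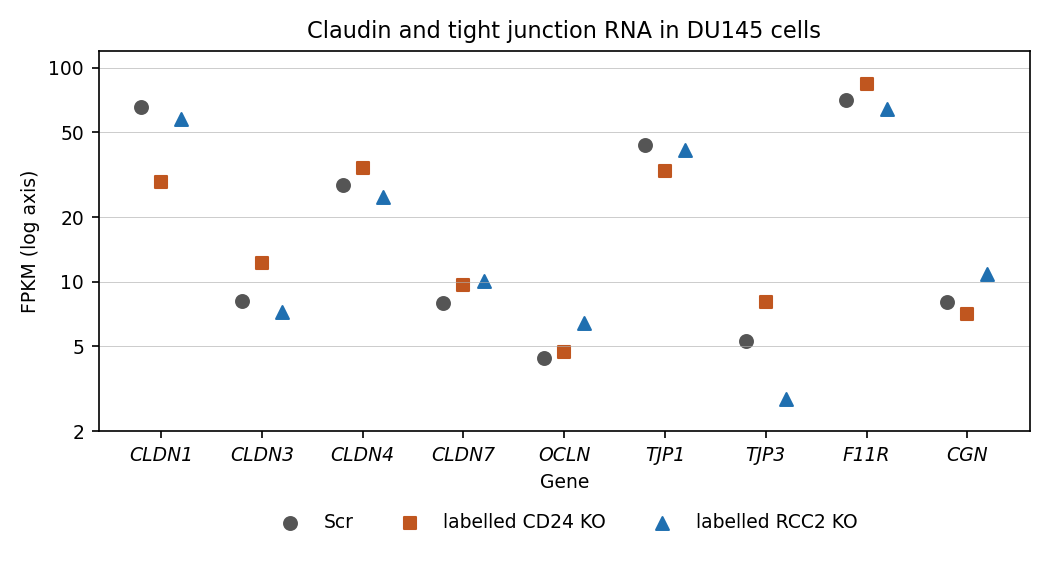
FPKM on a log axis for the 9 members, with 1 point for each condition as combined by the authors and no error bars, because the table holds 1 value per condition. CLDN1 is lowest in CD24 KO (29.2 FPKM against 65.2 in Scr), and TJP3 is lowest in RCC2 KO (2.82 FPKM).

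In CD24 KO, CLDN1 was more than 2-fold lower than in Scr while the 3 other claudins were higher. CLDN1 encodes a barrier-forming claudin, and was at 65.2 FPKM in Scr against 29.2 in CD24 KO and 57.4 in RCC2 KO. Its log2 difference of -1.13 in CD24 KO was past the 2-fold minimum, the value in Scr being 2.23 times that in CD24 KO, and 2.04% of the genes compared had a lower one. With quantile normalization the difference was -0.99, and with the columns scaled to an equal sum it was -0.97, both just short of 2-fold. In RCC2 KO the difference was -0.18. In bulk RNA, fewer cells that express a gene and less of its RNA in each cell cannot be told apart.

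CLDN3 and CLDN4 encode closely related claudins that bind the enterotoxin of Clostridium perfringens. CLDN3 was at 8.15 FPKM in Scr against 12.2 in CD24 KO and 7.23 in RCC2 KO, with log2 differences from Scr of 0.53 and -0.15. CLDN4 was at 28.2, 34.0 and 24.8 FPKM, with differences of 0.26 and -0.18. Both had their highest value in CD24 KO and their lowest in RCC2 KO. CLDN7, a claudin that binds EpCAM, was at 7.94, 9.61 and 10.1 FPKM and was higher than Scr in both knockouts, by log2 differences of 0.25 and 0.31. None of these 3 genes was past 2-fold in any comparison.

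Of 9 members, 1 was at least 2-fold different in CD24 KO, against 5.69% of all genes compared, and it was lower, against 3.03% of all genes. None was at least 2-fold higher, against 2.67%. CLDN1 was also the only member past 1.5-fold, a mark reached by 21.1% of all genes. This held for the deposited scaling with 1 FPKM added. With the columns scaled to an equal sum, CLDN3 and TJP3 passed 1.5-fold too, each with a log2 difference of 0.68. As a plain ratio of FPKM, TJP3 in CD24 KO was 1.53 times Scr. Of the members 6 were higher than Scr, against 47% of all genes, and 3 lower, against 52.9%, and their median log2 difference was 0.25, beside a median of -0.03 over all genes compared. The highest value was that of TJP3, at 0.53. F11R was at 70.3 FPKM in Scr against 83.5 in CD24 KO and 64.5 in RCC2 KO, with differences of 0.25 and -0.12. TJP1, which encodes the scaffold ZO-1, was lower, at 43.4 FPKM in Scr against 33.0 in CD24 KO and 41.1 in RCC2 KO, with differences of -0.39 and -0.08. OCLN and CGN differed least, by 0.08 and -0.17.

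**Figure D2:**
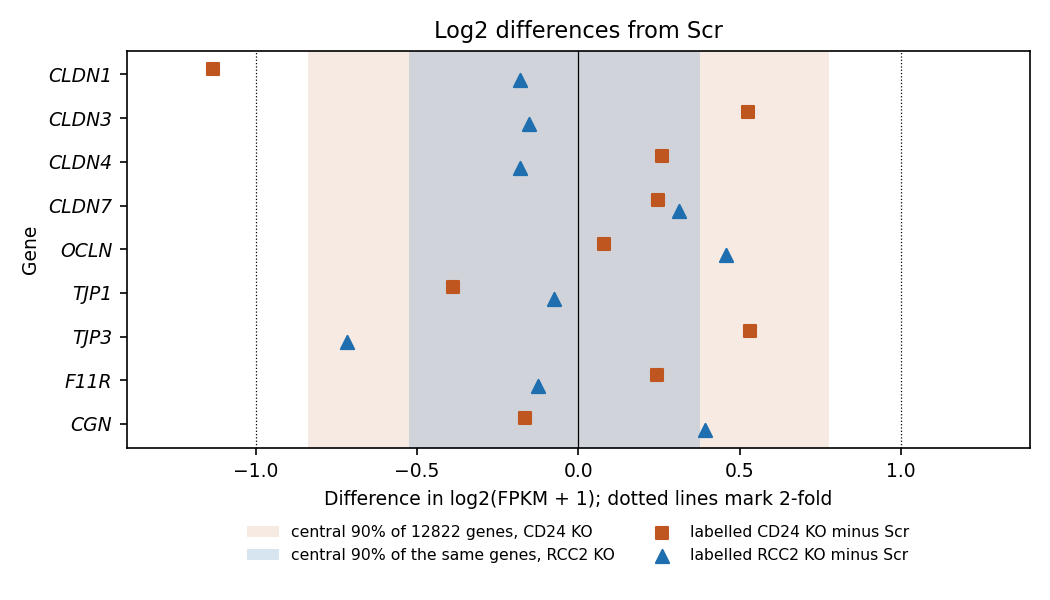
Differences in log2(FPKM + 1) from Scr for the 9 members, with squares for CD24 KO and triangles for RCC2 KO. Shaded bands span the central 90% of the 12822 genes compared (-0.84 to 0.78 in CD24 KO and -0.52 to 0.38 in RCC2 KO); CLDN1 lies outside the first band at -1.13, and TJP3, OCLN and CGN outside the second at -0.72, 0.46 and 0.39.

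In RCC2 KO, TJP3 was lower and OCLN, CGN and CLDN7 were higher than in Scr, with no member past 2-fold. TJP3 encodes ZO-3, the ZO protein most restricted to epithelia, and was at 5.28 FPKM in Scr against 8.08 in CD24 KO and 2.82 in RCC2 KO. Its log2 difference in RCC2 KO was -0.72, and 2.27% of the genes compared had a lower one. As a plain ratio of FPKM, Scr was 1.87 times RCC2 KO. TJP3 was the 1 member past 1.5-fold, against 5.27% of all genes, and the 2-fold minimum was passed by 0 of 9 members, against 1.2% of all genes (0.406% higher and 0.796% lower).

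OCLN was at 4.38 FPKM in Scr against 4.69 in CD24 KO and 6.39 in RCC2 KO. Its log2 difference in RCC2 KO of 0.46 lay above 97.1% of the genes compared. CGN, whose protein binds ZO-1, was at 8.06, 7.08 and 10.9 FPKM, and its difference in RCC2 KO of 0.39 lay above 95.5% of the genes. Both genes had their highest value in RCC2 KO. The other members stayed nearer to Scr, with log2 differences between -0.18 for CLDN1 and 0.31 for CLDN7. Of the 9 members 3 were higher, against 49.3% of all genes, and 6 lower, against 50.6%, and the median log2 difference was -0.12, beside a median of -0.0036 over all genes compared.

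The knockouts were also set directly against each other, without the Scr values common to the comparisons above. Here TJP3 was lower in RCC2 KO by a log2 difference of -1.25, the only member past 2-fold of 9, against 8.31% of all genes (4.02% higher and 4.3% lower). The CD24 KO value was 2.87 times the RCC2 KO value without a pseudocount. The pseudocount moved this difference, which was -0.74 with 5 FPKM added in place of 1, no longer past 2-fold. CLDN1 was higher in RCC2 KO by 0.95 and CLDN3 lower at -0.68, and with TJP3 these made 3 members past 1.5-fold, against 27.9% of all genes. CLDN4 and F11R were lower in RCC2 KO at -0.44 and -0.37, and CGN, OCLN and TJP1 higher by 0.56, 0.38 and 0.31. On this direct comparison 5 of the 9 members were higher in RCC2 KO and 4 lower, against 51.6% and 48.3% of all genes. CLDN7 differed by 0.06, and its sign turned to -0.07 when the columns were scaled to an equal sum.

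Because FPKM is scaled to length, the make-up of the claudin RNA can be read from each column. The table holds 24 claudin genes, of which 8 reached 1 FPKM in each column, namely the 4 members with CLDN12, CLDN11, CLDN15 and CLDN23. The other 16 added 0.986% to 1.37% of the claudin sum and were at most 0.905 FPKM, for CLDN2 in CD24 KO. CLDN1 made up 40.4% of the summed claudin FPKM in Scr, 21.8% in CD24 KO and 35.6% in RCC2 KO. CLDN4 held 17.5%, 25.4% and 15.3% in the same order and was the first claudin by level in CD24 KO. The ratio of CLDN1 to CLDN4 was 2.31 in Scr, 0.861 in CD24 KO and 2.32 in RCC2 KO. Such a ratio within a column is unchanged when each column is scaled by 1 factor, but can change with quantile normalization.
The summed claudin level was 161 FPKM in Scr against 134 in CD24 KO and 161 in RCC2 KO. Without CLDN1 the sums were 96.0, 105 and 104 FPKM, so CD24 KO was lowest with CLDN1 and was not without it. The sum over all genes of the table was also lowest in CD24 KO, and these claudin sums were not adjusted for it. CLDN12, a claudin without the usual PDZ-binding tail, was at 28.1, 30.6 and 31.7 FPKM. CLDN11, known from myelin and the testis, was at 13.0, 7.46 and 18.5 FPKM and was past 2-fold between the knockouts, with a log2 difference of 1.20. CLDN15, which forms cation pores in the gut, was at 5.79, 3.37 and 6.97 FPKM, and CLDN23 was at 3.22, 5.65 and 3.22 FPKM. CLDN1, CLDN11 and CLDN15 thus had their lowest value in CD24 KO, where CLDN3, CLDN4 and CLDN23 had their highest.

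**Figure D3:**
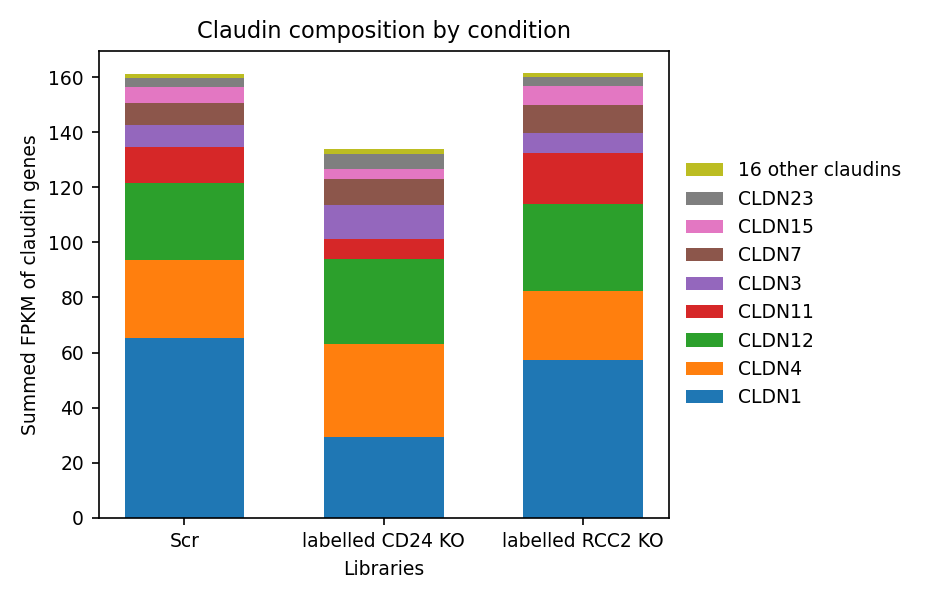
Stacked bars of the summed FPKM of all 24 claudin genes in each condition, starting at 0, with the 16 claudins under 1 FPKM joined at the top. The CLDN1 part is 65.2, 29.2 and 57.4 FPKM in Scr, CD24 KO and RCC2 KO, and the sums are 161, 134 and 161 FPKM.

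The scaffold genes TJP1 and TJP3 were set against each other in the same way. The ratio of TJP1 to TJP3 was 8.23 in Scr, 4.08 in CD24 KO and 14.6 in RCC2 KO. TJP1 was thus the higher of the pair in every column, and the gap was widest in RCC2 KO.

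The table places each member at a locus, in coordinates read as hg19. CLDN1 lies on chromosome 3 from 190023490 to 190040235, CLDN3 on chromosome 7 from 73183327 to 73184600 and CLDN4 on the same chromosome from 73245193 to 73247023. F11R lies on chromosome 1 from 160964996 to 160991133 and CGN on chromosome 1 from 151483862 to 151511167. TJP1 spans chromosome 15 from 29991571 to 30261002. These 6 genes share their locus with no other gene of the table. CLDN7, on chromosome 17 from 7146906 to 7166512, shares its locus with CTDNEP1 and ELP5, whose FPKM exceed its own. TJP3, on chromosome 19 from 3708335 to 3987432, shares a wide merged locus with 11 genes, 4 of them among those compared, EEF2 with 1039 FPKM in Scr included. OCLN, on chromosome 5 from 68788119 to 68853931, shares its locus with a small RNA listed at 0, and GENCODE 29 names 1 pseudogene of it. The authors' estimation could have divided fragments between such genes, so that CLDN7, TJP3 and OCLN are less certain than the others.

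The 5 genes compared on each side of a member were read for how far a difference reached along the chromosome. On 1 side, CLDN1 had a gene beside it with nearly its own pattern. IL1RAP, a subunit of the interleukin-1 receptor that lies 192 kb away, was at 18.7 FPKM in Scr against 8.03 in CD24 KO and 16.1 in RCC2 KO, with log2 differences of -1.13 and -0.20. Its difference in CD24 KO was -0.97 under another scaling, short of 2-fold. The gene on the other side, P3H2, lies nearer, at 161 kb, and had differences of -0.27 and -0.03. Among 9414 genes that reached 5 FPKM in some column, IL1RAP was also the one whose differences from Scr lay nearest to those of CLDN1, at a Euclidean distance of 0.023 over the 2 log2 differences, followed by ING5 and CSGALNACT1. With 3 columns such likeness is loose, and 21 genes lay within 0.1 of CLDN1. The 10 neighbours of CLDN1 had a median difference of -0.13 in CD24 KO and ran from -1.13 to 0.95, the highest being BCL6.
CLDN3 and CLDN4 lie 60.6 kb apart. In CD24 KO both were higher than Scr, as were the next 2 genes compared, METTL27 and WBSCR28, each with a log2 difference of 0.48. In RCC2 KO the 4 genes had differences between -0.15 and -0.23. On the CLDN3 side, the next gene compared was ABHD11, with a log2 difference of 0.0024 in CD24 KO and one of 0.26 in RCC2 KO. Beyond it ABHD11-AS1 had differences of 0.62 and -0.16, and then STX1A of -0.48 and 0.12. On the other side LIMK1 followed, with -0.30 and 0.22. Genes with the pattern of CLDN3 and CLDN4 were thus not in 1 unbroken run. METTL27 was at 3.38, 5.10 and 2.93 FPKM in Scr, CD24 KO and RCC2 KO. WBSCR28 was at 0.445, 1.01 and 0.234 FPKM, values near or below 1 FPKM. WBSCR28 was among the genes compared only through its value in CD24 KO. The filter thus fixed CD24 KO as its highest column, and WBSCR28 adds no weight to the pattern. These genes were noticed after the neighbours had been listed.
TJP3 lay below its neighbours in RCC2 KO. Their median log2 difference was -0.03 in CD24 KO and -0.05 in RCC2 KO, and none of the 10 was as low as TJP3 in RCC2 KO, the lowest being at -0.36. APBA3, in the same merged locus, was at 5.39, 5.48 and 3.998 FPKM.

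**Figure D4:**
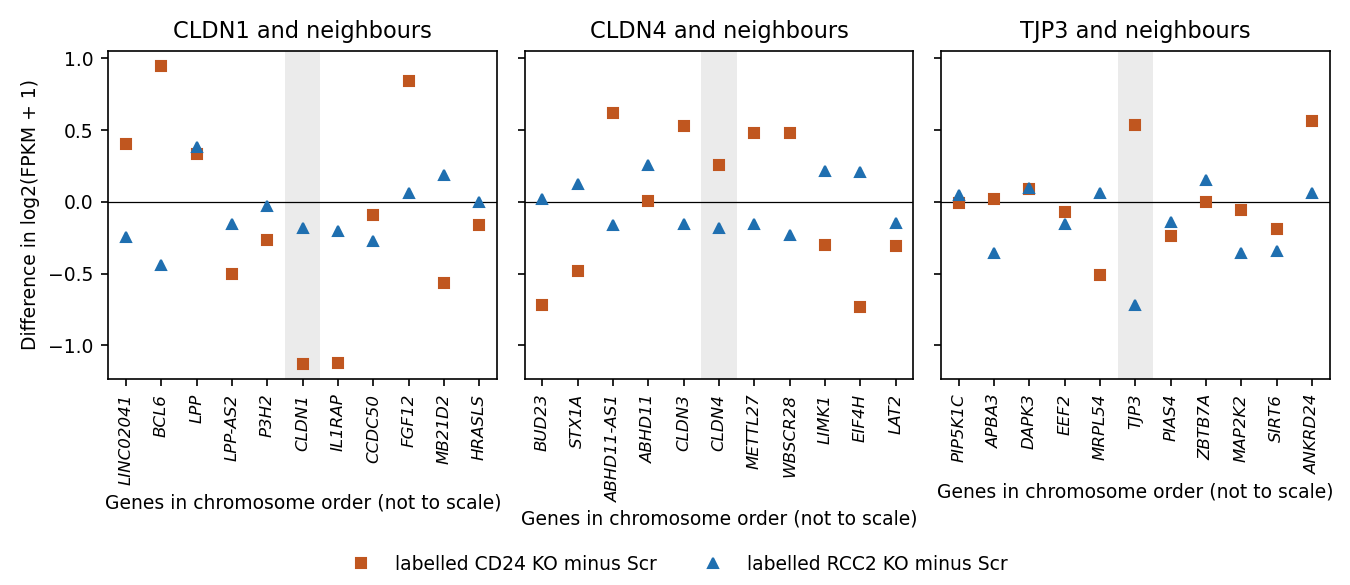
Differences in log2(FPKM + 1) from Scr for CLDN1, CLDN4 and TJP3 (shaded) and the 5 genes compared on each side, in chromosome order and not to scale, with squares for CD24 KO and triangles for RCC2 KO. IL1RAP sits beside CLDN1 at -1.13 in CD24 KO, and TJP3 stands below its neighbours in RCC2 KO at -0.72. CLDN3, CLDN4, METTL27 and WBSCR28 lie together above 0 in CD24 KO and below 0 in RCC2 KO. WBSCR28 passed the filter of 1 FPKM only through CD24 KO.

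Other tight junction genes were taken from 4 lists of other claudins, other membrane proteins, other scaffolds and signalling partners, with 64 genes in the table and 45 compared. In CD24 KO 1 of the 45 was at least 2-fold higher and 0 lower, against 2.67% and 3.03% of all genes. The median log2 differences were 0.13 and 0.03. The gene past 2-fold in CD24 KO was CRB3, an apical polarity protein that recruits PALS1, at 9.31 FPKM in Scr against 20.1 in CD24 KO and 13.1 in RCC2 KO, a difference of 1.03. EPCAM, the partner of CLDN7, was at 58.9, 44.9 and 58.6 FPKM.
Among membrane proteins, CXADR, an adhesion receptor of the junction, was at 40.7, 56.1 and 54.5 FPKM in Scr, CD24 KO and RCC2 KO, and MARVELD2, the tricellular relative of occludin, at 6.46, 6.94 and 7.62 FPKM. JAM3, a relative of JAM-A, was at 8.71, 6.68 and 6.85 FPKM. Of the polarity scaffolds, PALS1, listed under its older symbol MPP5, was at 64.0, 51.4 and 76.8 FPKM, PARD6A at 7.26, 8.83 and 4.57 FPKM and the kinase PRKCI at 41.8, 54.9 and 38.8 FPKM. Of 18 scaffolds compared none was past 2-fold in either knockout, against 5.69% of all genes in CD24 KO and 1.2% in RCC2 KO. ARHGEF11, a guanine nucleotide exchange factor at the junction, was at 12.1, 8.01 and 12.1 FPKM, and the membrane protease ST14 and its inhibitor SPINT1 were at 6.73, 4.83 and 8.07 FPKM and at 18.8, 23.4 and 17.2 FPKM.

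Transcription factors known to act on junction genes were read beside the members. Of 7 repressors of epithelial genes 5 were compared. SNAI2 was at 1.47 FPKM in Scr against 4.07 in CD24 KO and 1.63 in RCC2 KO, a log2 difference of 1.04 in CD24 KO that was 0.98 under another scaling, and SNAI1 was at 8.65, 5.55 and 6.96 FPKM. ZEB1 was at 10.8, 9.74 and 9.96 FPKM, and TWIST1 was listed at 0 in every column. Of 12 activators 5 were compared and none was past 2-fold, against 5.69% of all genes in CD24 KO and 1.2% in RCC2 KO. GRHL2, an activator of CLDN4 in other epithelia, was listed at 0 in Scr and at 0.0092 and 0.023 FPKM in CD24 KO and RCC2 KO. KLF5 was at 27.2, 42.5 and 31.0 FPKM and ELF3 at 18.3, 20.04 and 13.0 FPKM. Of 12 adherens junction genes 11 were compared, with a median log2 difference of -0.14 in RCC2 KO. CDH1, the E-cadherin gene, was at 27.9 FPKM in Scr against 52.6 in CD24 KO and 23.7 in RCC2 KO, with differences of 0.89 and -0.23. CDH1 thus had its highest value in the column where CLDN1 had its lowest, and the ratio of CDH1 to CLDN1 was 0.429 in Scr, 1.80 in CD24 KO and 0.413 in RCC2 KO. Of the 6 epithelial markers 3 were higher and 3 lower in CD24 KO. Their median log2 difference was -0.04, and up to 0.16 under other scalings. Their summed levels were 1119, 898 and 1292 FPKM in Scr, CD24 KO and RCC2 KO, the sum over all genes being lowest in CD24 KO too. Of the keratins of simple epithelia, KRT8 and KRT18 were lower in CD24 KO, with differences of -1.17 and -1.05, and KRT7 and KRT19 higher, with 0.31 and 0.43. Their part in the result for CLDN1 was not tested.

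**Figure D5:**
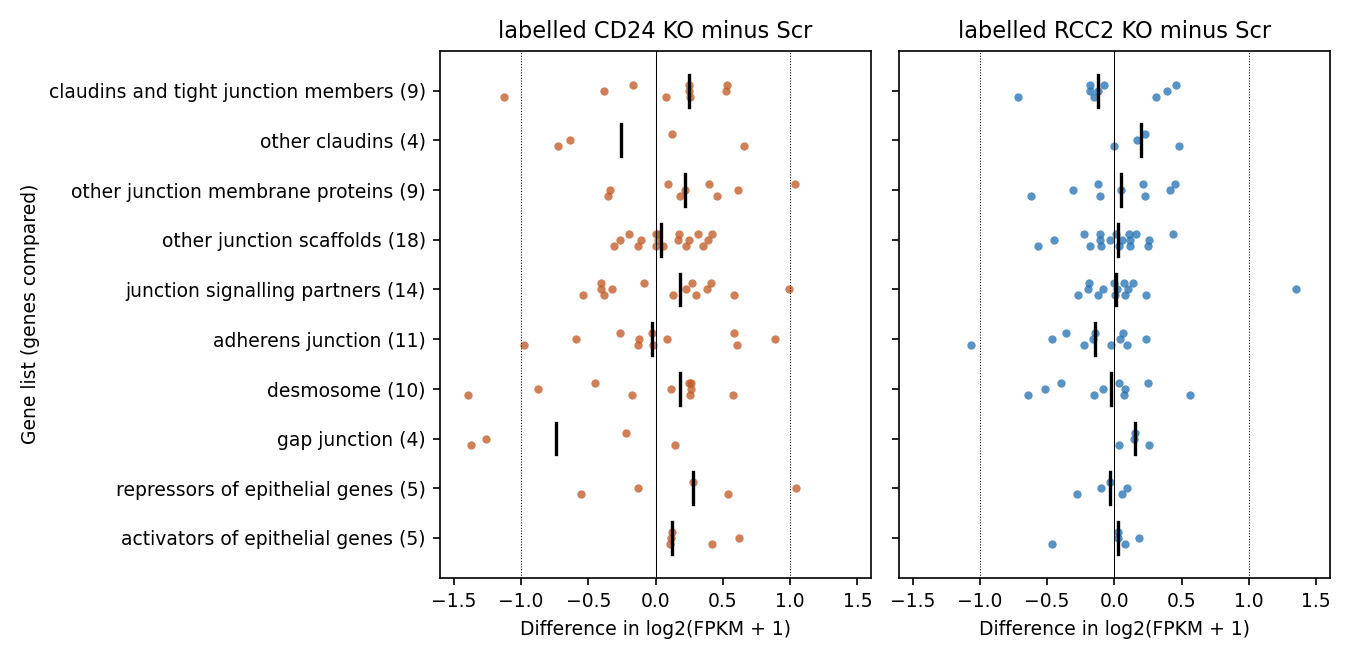
Differences in log2(FPKM + 1) from Scr for each gene compared in 10 lists, on the left for CD24 KO and on the right for RCC2 KO, with a black bar at the median of each list, dotted lines at 2-fold and the number of genes in brackets. The median of the 9 members is 0.25 in CD24 KO and -0.12 in RCC2 KO, and CRB3 stands to the right in CD24 KO at 1.03.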

How the data were processed

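Libraries of DU145 cells were sequenced, 2 for each of 3 conditions. Per the labels, the submitters' processing notes name HISAT, StringTie, Cufflinks and GATK, with no versions or roles. The methods name a stranded mRNA kit, and the labels an RNA kit applied to total RNA. The authors deposited FPKM values in 1 column per condition, and these were used as scaled. No genome build is named. Among 24864 symbols that GENCODE 29 lists once, 15.8% lay over their own GRCh38 position, so coordinates were read as hg19, with starts counted from 1.

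Genes with at least 1 FPKM in at least 1 column (12822 of 27381) were compared as log2(FPKM + 1). The planned limma test needed a value for each library and was not run. Among genes below 0.3 FPKM in Scr and RCC2 KO, the commonest ratio between the columns (to 3 decimals) held for 2.64%, so no depth could be derived and precision is unknown. The members and lists were chosen with earlier results of these data known, and the lists were written from memory. Named genes were the members, up to 4 per list with the largest differences among genes reaching 5 FPKM, CDH1, EPCAM, VIM, ZEB1, SNAI2, GRHL2 and the targeted genes; neighbours, genes sharing a locus, the markers of absent cell types and TWIST1 were named besides, some after their values were seen. Genes under this rule with no value in the text are not reported here. Alternatives were pseudocounts of 0.1 and 5, no filter, a filter of 1 FPKM in all columns, equal column sums, quantile normalization, centring on the median and a fold minimum of 1.5. The calculation was tested on simulated data. Python 3.11.15, NumPy 2.4.6, pandas 2.3.3 and matplotlib 3.10.9 were used.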

Additional observations from a re-analysis of the deposited data

How the results depend on the processing

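No paired analysis was possible because the table holds 1 column per condition, and for the same reason no replicate could be left out. Of 27 member differences (9 genes in 3 comparisons), 26 kept their sign under the deposited scaling, median centring, quantile normalization and equal column sums, the exception being CLDN7 between the knockouts. Equal column sums moved the median of all genes to 0.11 in CD24 KO and to -0.11 between the knockouts. The number of members past 2-fold in CD24 KO was 1 as reported and 0 with quantile normalization or equal column sums. Between the knockouts it was 1 as reported and 0 with a pseudocount of 5. With a minimum of 1.5-fold, 1 member passed in RCC2 KO, in place of 0, and 3 between the knockouts. The median member difference between the knockouts, 0.06, was -0.07 with equal column sums. TJP3 in RCC2 KO was -0.39 with a pseudocount of 5, against -0.72. Among the 4 claudin members alone, CLDN1 made up 59.5%, 34.4% and 57.7% in Scr, CD24 KO and RCC2 KO. A ratio without a pseudocount and the promoter window without the bases after the start were added after seeing the data. Unknown depth limits the low values most, those of OCLN and TJP3 among the members.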

Other observations

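Gap junction and desmosome genes were read in the same columns. GJA1, which encodes the gap junction protein connexin 43 and was named after its values were seen, was at 2.45 FPKM in Scr against 0.330 in CD24 KO and 3.11 in RCC2 KO. Of 10 desmosome genes compared 6 were higher and 4 lower in CD24 KO, with a median log2 difference of 0.18. At least 2-fold lower was 1 of them, against 3.03% of all genes, namely DSP, which encodes desmoplakin, at 64.8 FPKM in Scr against 24.1 in CD24 KO and 41.2 in RCC2 KO. Desmocollin DSC3 was at 7.59, 3.69 and 4.99 FPKM. PPL, the periplakin gene, was at 5.83, 9.19 and 5.14 FPKM, and PKP2, the plakophilin 2 gene, at 4.31, 5.36 and 3.04 FPKM, both with their highest value in CD24 KO. JUP, the plakoglobin gene shared by desmosomes and adherens junctions, was at 89.0, 44.7 and 42.0 FPKM, with log2 differences of -0.98 and -1.06 from the same Scr value.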
